A study of Mus musculus with 24 samples.

Results

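The 223 genes described here are the rows that the deposited count table places on mouse chromosome 18 with a mean of at least 30 unique molecular identifiers (UMIs) over 24 libraries, apart from Iigp1, Egr1 and Lox. They are 223 of 24614 genes in the table, of 8466 genes that reach the same mean, and of 652 rows on the chromosome. The chromosome was picked because its genes were higher in empty vector cells than in the other lines, so every value of empty vector cells against another line is given as a description. The cells are ID8, a mouse ovarian surface epithelial cancer line, and the labels give a knockout of Trp53 and Brca2 for the cells of all groups. The 4 lines are untransfected cells (WT), cells that went through CRISPR with an empty vector (EV), and the clones 1CF10 and 2CD7, in which CRISPR removed Ifnar1, a chain of the type I interferon receptor. Each line was left untreated or given interferon beta (IFN beta) at 10000 IU/ml for 3 h, in medium with 4% serum, which makes 8 groups of 3 libraries. By the labels the 3 libraries of a group are technical replicates of 1 treatment date, and SDs, SEs and p-values here measure technical spread. Each knockout line is 1 clone, and the labels do not say whether EV is a clone or a pool.

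Gene dosage is the number of copies of a gene that a cell carries. Cultured cancer lines often carry whole chromosomes, or long stretches of them, in more or fewer copies than normal cells. When copy number changes, RNA of many neighbouring genes usually shifts by a similar small factor, while single genes can follow their own regulation. RNA alone was measured, and DNA copy number was not, so the values here are RNA levels and gene dosage itself was not measured. In bulk RNA, a change in every cell and a larger change in some of the cells cannot be told apart.

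Library totals ran from 1972192 to 3097331 UMIs, with a median of 2512965. Krt8, Krt18, Krt19, Msln and Wt1, markers of the surface epithelium and mesothelium, were detected in all 24 libraries, while Krt7 had a median of 0.369 CPM (counts per library, scaled to a common total). The leukocyte markers Ptprc, Cd3e and Lyz2 had no UMI in any library, and Itgam had UMIs in 1 library. Of 4 endothelial markers Cdh5 and Tek had none, Kdr had UMIs in 1 library and Pecam1 in 13, at no more than 1.52 CPM.

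Of the 223 members, 186 are protein coding, 33 are processed pseudogenes (retrocopies of genes that lie elsewhere) and 4 are other RNAs, by the GENCODE M21 annotation of GRCm38. They lie between 3382988 and 90543267 on chromosome 18. Their means ran from 30.1 to 5358 UMIs, with a median of 109. The members nearest to the minimum were Gm7464 at 30.1 and Sap130 at 31.0, and the genes nearest below it were Ppp2r2b at 29.96 and Zfp35 at 29.3. The genes left out by name had means of 49.7 (Lox), 60.0 (Egr1) and 88.9 UMIs (Iigp1). Untreated, EV minus WT was -1.58 (log2) for Lox, a collagen cross-linking enzyme, and 0.28 for Egr1, an immediate early factor. After IFN beta, Iigp1 rose by 7.49 (log2) in WT and by 8.56 in EV.

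Members held a larger share of the UMIs in EV cells than in the other lines. In untreated cells the share was 2.51% ± 0.0041 (SD, n = 3) in EV, against 2.16% ± 0.017 in WT, 2.22% ± 0.024 in 1CF10 and 2.20% ± 0.021 in 2CD7. Treated cells of the EV line had 2.45% ± 0.0046, against 2.11% ± 0.014 in WT, 2.21% ± 0.034 in 1CF10 and 2.19% ± 0.0035 in 2CD7. The 6 EV libraries lay between 2.45% and 2.52%, and the other 18 libraries between 2.10% and 2.25%. The median member was 0.25 higher in EV than in WT untreated and 0.28 higher after IFN beta (log2 differences, ratios of 1.19 and 1.21). Against 1CF10 the medians were 0.27 untreated and 0.24 treated, and against 2CD7 they were 0.26 and 0.26. All genes with a mean of at least 30 UMIs had medians between -0.01 and 0.01 in these 6 comparisons.

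The excess was not spread evenly along the chromosome. In 10 Mb windows, untreated EV minus WT had medians of -0.05 and -0.03 up to 20 Mb, 0.47 from 20 to 30 Mb, 0.34, 0.31, 0.22, 0.32 and 0.30 in the windows that follow up to 80 Mb, and 0.01 from 80 to 90 Mb. After IFN beta the outer windows had -0.06, 0.03 and 0.07, and those between 20 and 80 Mb had 0.27 to 0.44. The pair of ends that best split the 186 protein-coding members into a stretch and the rest, by the least absolute deviation from a median for each, on the mean of the 6 comparisons of EV, was placed at Zfp397 and Slc14a1. This stretch runs from 23954692 to 78142119 on chromosome 18, 54.2 Mb in all. It was drawn from the values it describes, so no test was made on it.

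**Figure D1:**
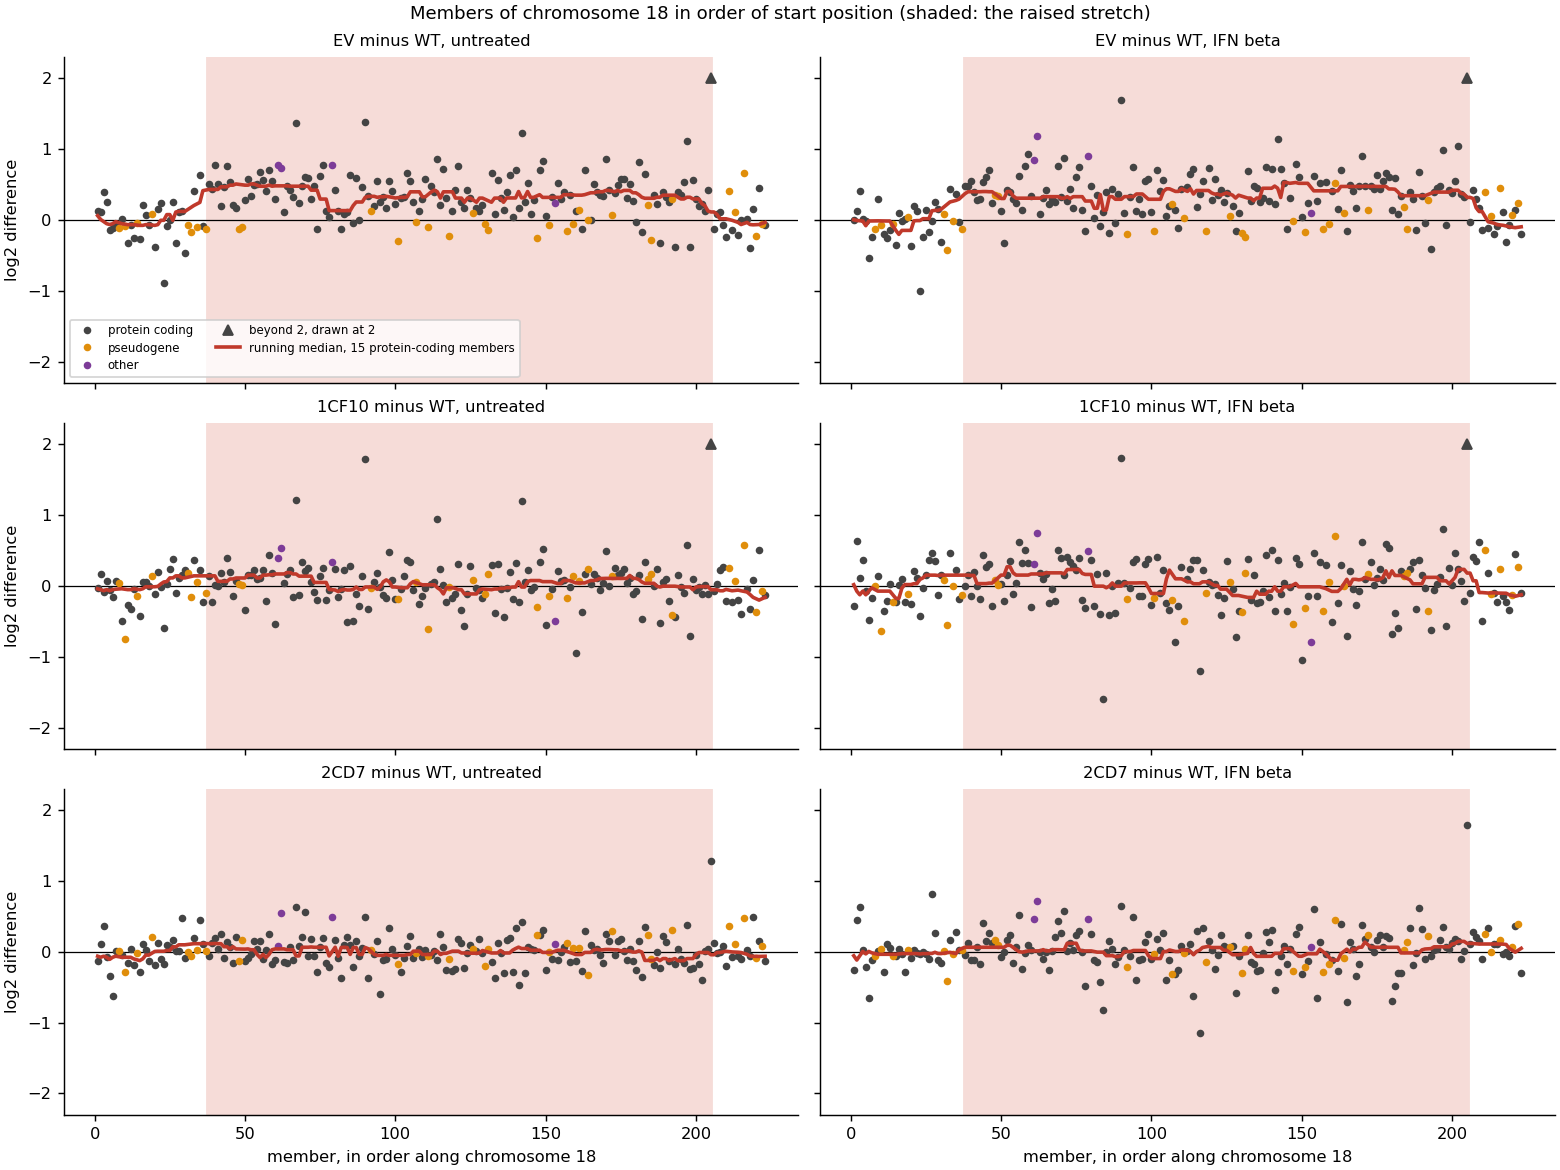
Log2 difference (y axis) of each of the 223 members in order of start position along chromosome 18 (x axis, rank), for EV, 1CF10 and 2CD7 minus WT, untreated (left) and after IFN beta (right). Points are members coloured by kind, triangles are values beyond 2, the line is the running median of 15 protein-coding members and the shaded band is the stretch from Zfp397 to Slc14a1, where the line for EV lies above 0 and the lines for the clones lie near 0.

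The stretch holds 144 of the protein-coding members and leaves 42 outside, 29 before it and 13 after it. In the stretch, the median of the mean over the 6 comparisons was 0.39, with quartiles of 0.28 and 0.46, and 142 of the 144 members were above 0. Outside, the median was -0.01. By comparison, members of the stretch had medians of 0.37 and 0.40 against WT, 0.35 and 0.34 against 1CF10, and 0.39 and 0.38 against 2CD7, untreated and treated, which are ratios of 1.26 to 1.32. The 29 before the stretch had medians of -0.03 to 0.03 in the 6 comparisons, and the 13 after it had -0.07 to -0.01.

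The last end was sharper than the first. Going outwards, Atp5a1 had a mean difference of 0.42 and Slc14a1 of 1.45, and the next protein-coding members, Rbfa, Gm16286 and Txnl4a, had -0.09, 0.13 and 0.08. Slc14a1, a urea transporter, was also higher in both clones than in WT. Its mean was 31.6 UMIs, but 26.2 over the 18 libraries that are not EV, so it reached the minimum through the EV libraries, as did the pseudogene Gm7464 (29.6 without EV). Without these 2 members the stretch ended at Atp5a1 and ran over 53.8 Mb, with 143 protein-coding members and a median of 0.39. Before the first end lay Mapre2 at -0.01, then Rnf138 at 0.31, Cdh2 at 0.23 and Kctd1 at -0.41. Drawn from 1 comparison at a time, the first end fell at Zfp397, at Rnf138 (21001341) or at Cdh2 (16588877), and the last end at Atp5a1 (77782869), Slc14a1 or Ctdp1 (80469695). The length then ran from 54.2 to 63.9 Mb.

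Per library, the level of each member was set against its mean in untreated WT, and the median over the 144 members of the stretch was taken. This median was 0.38 ± 0.027 (log2, SD, n = 3) in untreated EV and 0.39 ± 0.028 in treated EV. The 6 EV libraries ran from 0.36 to 0.42, and the 18 others from -0.04 to 0.07. The same 144 members took 1.60% to 1.67% of UMIs in EV libraries and 1.24% to 1.35% in the rest. The 42 members outside the stretch took 0.251% to 0.267% in EV and 0.252% to 0.283% elsewhere, so these ranges overlap.

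**Figure D2:**
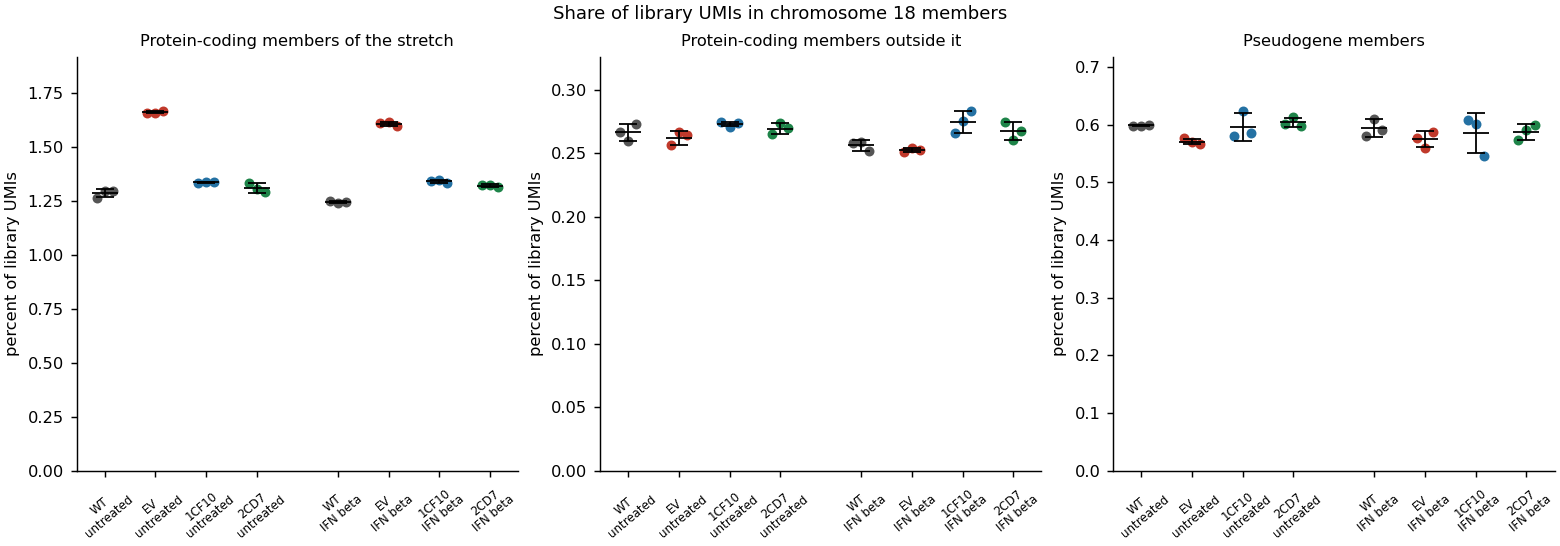
Percent of library UMIs (y axis, from 0) held by protein-coding members of the stretch (left), protein-coding members outside it (middle) and pseudogene members (right) in each group (x axis). Points are libraries and bars are the mean and SD of 3 libraries. The 6 EV libraries lie between 1.60% and 1.67% on the left, above all others, and overlap the others in the middle and on the right.

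Counts of single members followed the medians. Untreated, 81 of 223 members were called higher in EV than in WT and 5 lower (edgeR, adjusted p below 0.05), where 6.96% and 7.14% of all tested genes were called. After IFN beta 88 were called higher and 8 lower, against 9.7% and 9.45% of all genes. Against 1CF10, 71 were called higher and 4 lower untreated (6.76% and 3.6% of all genes), and 79 and 4 after IFN beta (11.6% and 7.34%). Against 2CD7, 75 and 2 were called untreated (4.86% and 4.0%), and 79 and 5 after IFN beta (8.56% and 6.94%). The 5 lower untreated were Rab18, Gata6, Me2, Acaa2 and Cyb5a, a set named here after its values were seen. These counts of lower members were small enough to turn on 1 library: 2 were called against WT untreated without the third untreated WT library, 2 against 1CF10 untreated without the second 1CF10 or the third EV library, 1 against 1CF10 treated without the third EV library, and 4 or 5 against WT treated without replicate 2 or 3 of either line.

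In the stretch 27 of 144 protein-coding members were called higher in all 6 comparisons, 122 in at least 1 and 22 in none, where 0.624% of all tested genes were called higher in all 6 and 24.0% in at least 1. Outside it 5 of 42 were called higher in at least 1 comparison, namely Rock1, Cdh2, Rnf138, Gm16286 and Txnl4a, named after their values were seen. Of the 79 members of the stretch with a mean of at least 100 UMIs, 7 were called in none, and of the 65 with fewer UMIs, 15. The median of the mean difference was 0.38 in the former and 0.40 in the latter, so the size of the difference was close in both and the call was rarer at lower depth.

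The levels themselves separated the lines for a part of the members. In untreated cells, 67 of 223 members had all 3 EV libraries above all 9 others, where 3.15% of all tested genes did, and after IFN beta 54 did, against 3.33%. Over all 24 libraries, 30 members had every EV library above every other library, against 0.829% of all genes. Of these 30, 29 were protein-coding genes of the stretch and the other one was Snhg4, a snoRNA host RNA that lies in it. In the other direction, 1 member untreated (Gm10269) and 2 treated (Gata6 and Gm4950) had every EV library below every other, where 2.68% and 2.86% of all tested genes did. Over all 24 libraries 0 members did, against 0.479%. Among the 42 protein-coding members outside and the 33 pseudogenes, none had all EV libraries above all others, either untreated or treated.

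**Figure D3:**
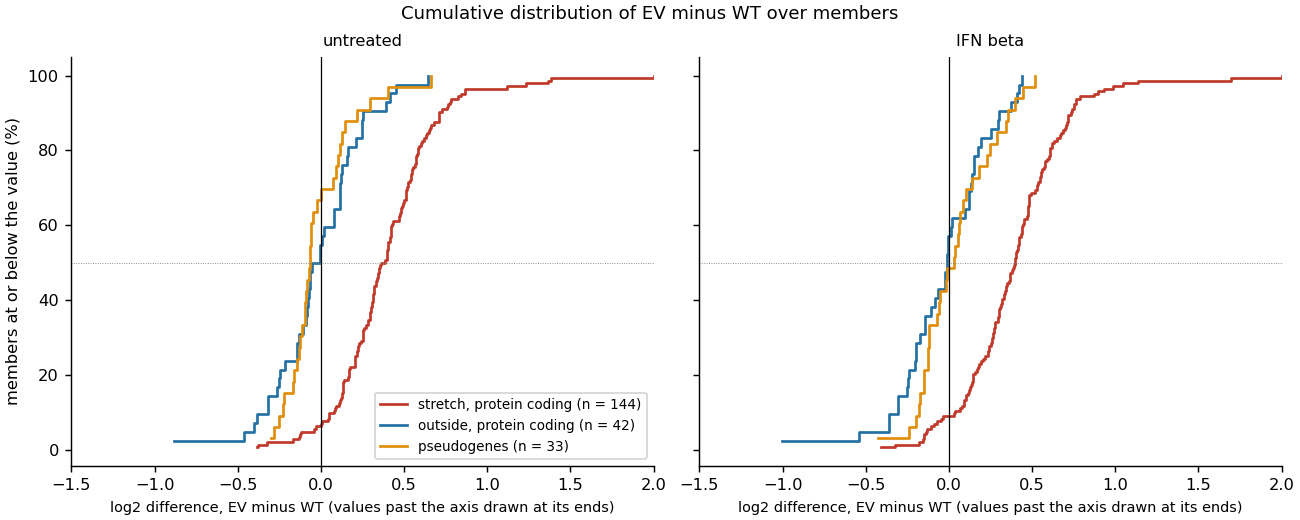
Cumulative percent of members (y axis) at or below each log2 difference of EV minus WT (x axis), untreated (left) and after IFN beta (right), for 144 protein-coding members of the stretch, 42 outside it and 33 pseudogenes. The curve of the stretch is moved to the right over nearly its whole length, with medians of 0.37 and 0.40, while the other curves cross 50% near 0.

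Pseudogenes had medians nearer to 0 than protein-coding members of the stretch. Over the 6 comparisons of EV, medians ran from -0.07 to 0.11 for all 33 and from -0.07 to 0.08 for the 20 that lie in the stretch. In at least 1 comparison 8 of the 33 were called higher, a share near the 24.0% of all tested genes. In all 6 none was, against 0.624% of all tested genes. Reads of a retrocopy and of its parent gene are hard to tell apart, so a pseudogene row may count RNA of a gene on another chromosome. The most abundant was Gm10269, with 1559, 1663 and 1541 CPM in untreated WT, against 1508, 1419 and 1520.5 in untreated EV, ranges that do not overlap but with the lower values in EV. Its difference was -0.10 ± 0.06 (log2, SE). Rps2-ps10, named as a copy of a ribosomal protein gene and lying in the stretch, had 662, 607 and 676 CPM in WT, against 619, 647 and 587 in EV, which overlap. Eno1b, a copy of the gene for the glycolytic enzyme enolase that is annotated as protein coding, had 811, 787 and 769 CPM in WT, against 867, 922 and 869 in EV. Its difference of 0.17 ± 0.06 is below that of most of the stretch, and the same doubt holds for its counts.

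Protein-coding genes of the chromosome below 30 UMIs had no part in drawing the ends. The 44 tested ones inside the stretch had medians of 0.42 untreated and 0.34 treated for EV minus WT, 0.62 and 0.34 for EV minus 1CF10, and 0.41 and 0.15 for EV minus 2CD7. The 18 outside had 0.12 and -0.16, 0.25 and 0.02, and 0.35 and 0.04. At these low counts the untreated medians outside the stretch were also above 0. These genes lie on a chromosome picked for its EV values, so their medians are a description too. The filter on low counts can keep a gene through the libraries of a single group, EV included, and such genes were not taken out here.

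Genes of RNA processing and translation form the role list with the most members, 22 of 22 genes, of which 19 lie in the stretch. Of the 22, 16 were called higher in EV than in WT untreated and 17 after IFN beta, none lower (edgeR). Of all tested genes, 6.96% and 9.7% were called higher, and 7.14% and 9.45% lower. The shares of all genes given above for each comparison are the background for the lists that follow. The median difference of this list was 0.45 in both states, where the stretch had 0.37 and 0.40. Most members of each list lie in the stretch, and an effect of role apart from position was not tested. Rps14, a protein of the small ribosomal subunit (60747098 to 60778546), was the most abundant member. It had 2044, 2025 and 1963 CPM in untreated WT, 2331, 2525 and 2479.7 in EV, 1965, 2024 and 1976 in 1CF10, and 2122, 1991 and 2010.2 in 2CD7. Treated cells had 1918, 2014 and 1948 CPM in WT, 2416, 2513 and 2399 in EV, 2128, 2054 and 1646 in 1CF10, and 2092, 2021 and 1949.7 in 2CD7. All 6 EV libraries were above all 18 others, and the third treated 1CF10 library was the lowest of all. EV minus WT was 0.28 ± 0.06 untreated and 0.32 ± 0.06 treated.

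Nars, the asparaginyl-tRNA synthetase of the cytoplasm (64499647 to 64516652), had 470.5, 564 and 514 CPM in untreated WT and 834, 922 and 772 in EV. The clones lay between, with 538, 602 and 599 CPM in 1CF10 and 693, 664 and 543 in 2CD7. EV did not overlap any other line untreated, but after IFN beta its lowest library, at 649 CPM, was below the highest 2CD7 library at 657. EV minus WT was 0.71 ± 0.13 in both states. Etf1, the release factor that ends translation (34902785 to 34932007), had 228, 235 and 235 CPM in untreated WT and 375, 350.4 and 346 in EV, a difference of 0.62 ± 0.07. Tcof1, which supports ribosomal RNA synthesis (60813755 to 60848971), had 154, 166 and 149.7 CPM in WT, 245, 259 and 263 in EV, 207, 199.8 and 189 in 1CF10, and 198, 169 and 184 in 2CD7. EV was the highest line for both genes, and both clones were also above WT for Tcof1. Wdr36, a factor of ribosome assembly that no list holds, had EV minus WT differences of 0.55 ± 0.14 untreated and 0.93 ± 0.14 treated. Outside the stretch, EV minus WT was -0.00 untreated and 0.14 treated for Riok3, 0.11 and 0.30 for Txnl4a, and 0.16 and 0.19 for Snrpd1. All 22 members of the list were above 0 treated.

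**Figure D4:**
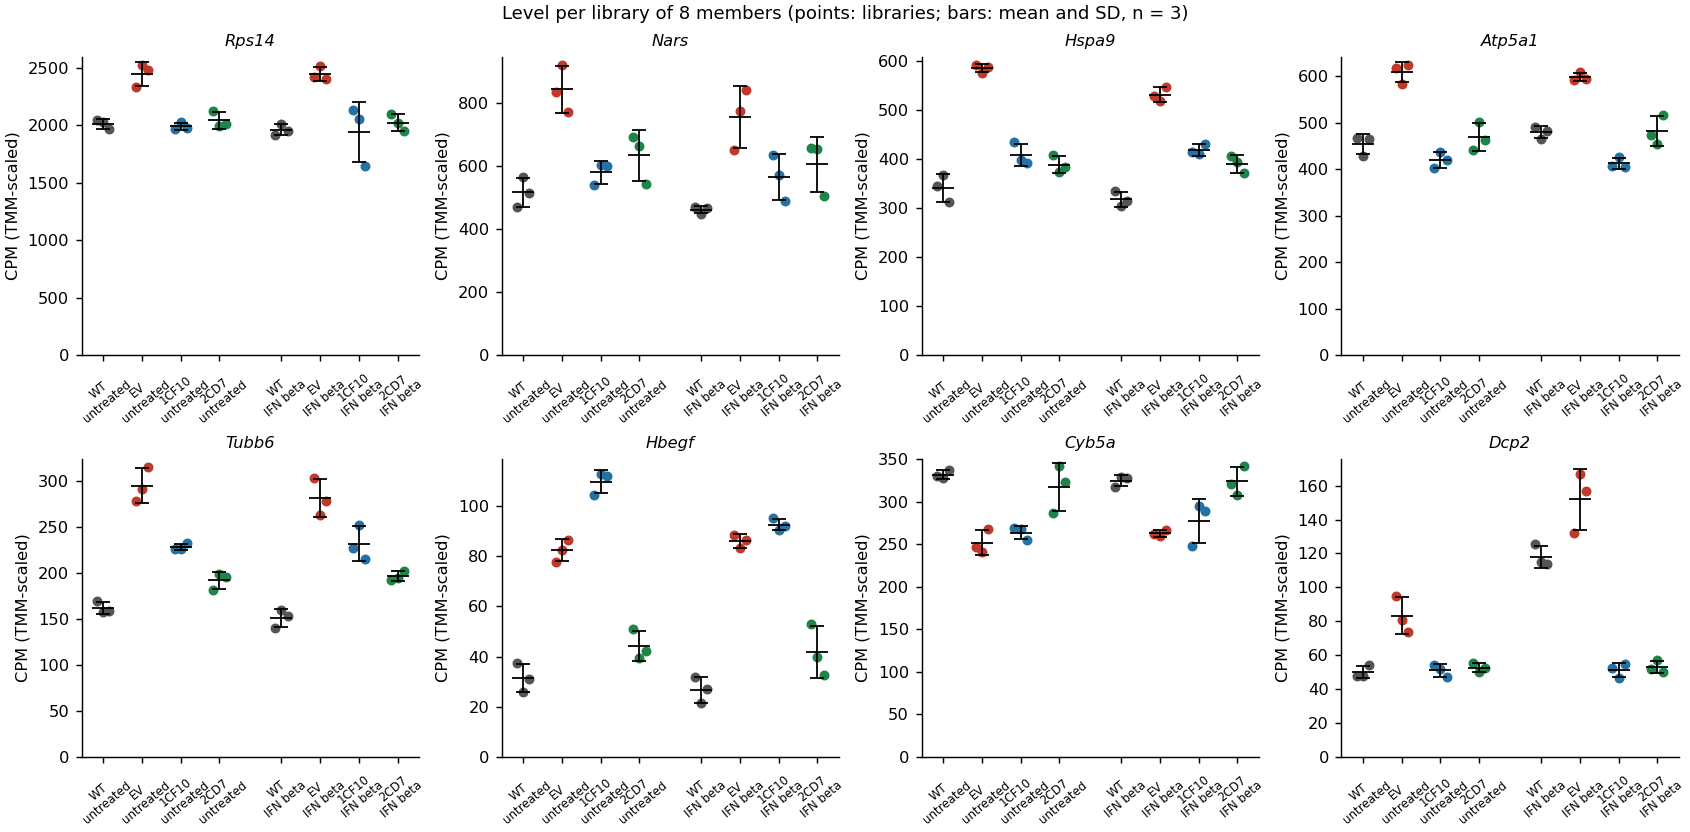
Level in CPM (y axis, from 0, TMM-scaled) of 8 members in each library, grouped by line and treatment (x axis). Points are libraries and bars are the mean and SD of 3 libraries. EV is above every other library for Rps14, Hspa9, Atp5a1 and Tubb6, 1CF10 is the highest line for Hbegf, Cyb5a is lower in EV and 1CF10 than in WT, and Dcp2 is higher after IFN beta in WT and EV but not in the clones.

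Of 18 listed mitochondrial and metabolic genes 16 are members and 12 lie in the stretch. Against WT, calls in EV went both ways: untreated, 4 were higher and 3 lower, and after IFN beta 5 and 2, with medians of 0.17 and 0.14. Against 1CF10 they went 1 way, with 6 higher untreated, 9 treated and none lower, and medians of 0.35 and 0.36. Against 2CD7, 4 were higher and 1 lower untreated, and 7 and 1 treated. Hspa9, the mitochondrial Hsp70 chaperone (34937414 to 34954357), had 346, 368 and 312 CPM in untreated WT, 593, 577 and 588 in EV, 435, 398 and 393 in 1CF10, and 408, 374 and 383 in 2CD7. EV was the highest and WT the lowest line, with no overlap between them and the clones. EV minus WT was 0.78 ± 0.06 untreated and 0.74 ± 0.06 treated. Atp5a1, the alpha subunit of ATP synthase (77773729 to 77782869), had 468, 429.6 and 466 CPM in WT and 618, 584 and 624 in EV, a difference of 0.42 ± 0.06. Its gene overlaps Haus1 on the opposite strand, and the sources used here do not say whether counting used strand. Ndufa2, a subunit of respiratory complex I (36742332 to 36744557), had 289.9, 285 and 318 CPM in WT and 349, 387 and 381 in EV, a difference of 0.32 ± 0.07.

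Cyb5a, cytochrome b5 of the endoplasmic reticulum, lies after the stretch (84838704 to 84879871) and went the other way. It had 329.6, 328 and 337 CPM in untreated WT, 246, 240.2 and 268 in EV, 269, 268 and 254 in 1CF10, and 287, 342 and 323 in 2CD7. EV and 1CF10 were both below WT and overlapped each other. Inside the stretch, 2 protein-coding members were called lower in EV than in WT untreated. Acaa2, a thiolase of mitochondrial fatty acid oxidation (74779197 to 74806208), had 58.5, 48.4 and 65.9 CPM in untreated WT and 52.4, 44.4 and 37.2 in EV, which overlap, and EV minus WT was -0.38 ± 0.13 untreated and -0.41 ± 0.13 treated. Me2, the mitochondrial malic enzyme (73769903 to 73815449), had 176, 194 and 199 CPM in WT and 139.9, 157 and 159 in EV, a difference of -0.32 ± 0.08 untreated and -0.14 ± 0.08 treated. Without 1 library at a time, the untreated call was lost in 4 fits for Acaa2 and in 2 for Me2, and the treated call of Acaa2 in 2. The untreated call of Acaa2 was also lost by DESeq2 (-0.37) and with the compared groups alone (-0.38). Both were also lower in untreated 1CF10 than in WT, by -0.43 for Acaa2 and -0.52 for Me2 (edgeR adjusted p = 0.010 and 2.7e-06, the former lost in 2 such fits). Zbtb7c, a zinc finger factor (75820178 to 76148564), had -0.38 ± 0.14 untreated and -0.07 ± 0.14 treated, and Rab18, a small GTPase of lipid droplets before the stretch, had -0.32 ± 0.10 and -0.20 ± 0.10. The pseudogene Gm7665, also before the stretch, had -0.17 ± 0.09 and -0.43 ± 0.09.

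Of 22 cytoskeleton and membrane traffic genes, 19 are members and 15 lie in the stretch. Untreated, 8 were called higher in EV than in WT and none lower, and after IFN beta 11 and 1, with medians of 0.25 and 0.41. Tubb6, a beta-tubulin (67390717 to 67402749), had 169, 157 and 158 CPM in untreated WT, 278, 291 and 315 in EV, 226, 226 and 232 in 1CF10, and 182, 199 and 195 in 2CD7. The 4 lines did not overlap, in the order EV, 1CF10, 2CD7, WT, and EV minus WT was 0.87 ± 0.07 untreated and 0.90 ± 0.07 treated. Lman1, a cargo receptor between endoplasmic reticulum and Golgi, had 150.4, 158 and 163 CPM in WT and 196, 222 and 205 in EV (0.40 ± 0.08). Kif5b, a kinesin heavy chain that lies before the stretch (6201002 to 6242174), had 407, 358 and 391 CPM in WT and 352, 399.8 and 364 in EV, which overlap (-0.05 ± 0.06).

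All 6 cell division genes of the stretch were above 0 for EV minus WT, and the 3 before it, Rbbp8, Esco1 and Mapre2, were at -0.09, -0.39 and -0.09 untreated. Of the 9 members of this list, 5 were called higher untreated and 4 treated, none lower, with medians of 0.48 and 0.37. Against 1CF10 the medians were 0.14 and 0.26, with 2 and 3 called higher. Against 2CD7 they were 0.12 and 0.29, with 3 and 4 called higher. None was called lower against either clone. Untreated, the list was also above WT in the clones, with medians of 0.19 in 1CF10 and 0.11 in 2CD7. Lmnb1, a lamin of the nuclear envelope, had 63.5, 72.4 and 64.8 CPM in untreated WT and 105, 102 and 103 in EV (0.63 ± 0.11). Seh1l, a nuclear pore protein, had 80.1, 77.0 and 78.3 CPM in WT and 122, 119 and 109 in EV (0.57 ± 0.10). Kif20a, a kinesin of cytokinesis, had 43.7, 47.9 and 41.0 CPM in WT, 66.8, 59.2 and 58.1 in EV and 60.3, 52.3 and 54.6 in 1CF10, so EV overlapped the clone.

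Of 6 members of the TGF beta and BMP list, 2 were called higher in EV than in WT untreated and 1 treated, none lower. Smad7, the inhibitory Smad, had 14.4, 14.3 and 20.0 CPM in untreated WT, 31.2, 35.8 and 41.3 in EV, 26.3, 24.0 and 24.4 in 1CF10, and 25.6, 19.7 and 18.9 in 2CD7. EV minus WT was 1.12 ± 0.18, above the median of the stretch. Smad4, the common partner of the pathway's Smads, had 0.22 ± 0.15 and Zeb1, a repressor of epithelial genes that lies before the stretch, -0.14 ± 0.18. Of 8 members of the Wnt and adhesion list, 3 were called higher untreated and 4 treated. Csnk1a1, a kinase that marks beta-catenin for destruction, had 155, 192 and 170.0 CPM in WT and 227, 214 and 203 in EV (0.32 ± 0.08). Ctnna1, alpha-catenin, had 253, 282 and 309 CPM in WT and 291, 322 and 314 in EV, which overlap (0.13 ± 0.07).

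Cdh2, N-cadherin, lies before the stretch (16588877 to 16809246), with the protein-coding members Rnf138 and Mapre2 between. Cdh2 was itself the first end when drawn from either comparison of EV with WT. It had 192, 172 and 184 CPM in untreated WT, 233, 286 and 212 in EV, 224, 226 and 256 in 1CF10, and 219, 218 and 192 in 2CD7. EV and 1CF10 overlapped, and EV minus 1CF10 was 0.05 ± 0.08. Hbegf, a ligand of the EGF receptor (36504927 to 36515805), had the largest EV minus WT difference among members with at least 100 UMIs. It had 37.4, 26.0 and 31.0 CPM in untreated WT, 77.9, 82.7 and 86.7 in EV, 104, 113 and 112 in 1CF10, and 51.1, 39.3 and 42.2 in 2CD7. The highest line was 1CF10, and EV minus WT was 1.38 ± 0.13. It is 1 of 4 members of the growth factor list, of which 2 were called higher in EV than in WT in each state and none lower. Ndfip1, an adaptor of ubiquitin ligases, had 0.26 ± 0.10 untreated and 0.20 ± 0.10 treated.

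The chromatin and transcription list has 10 members, of which 2 were called higher in EV than in WT untreated and 2 treated, none lower, with medians of 0.29 and 0.25. Hdac3, a histone deacetylase, had 72.9, 55.5 and 64.8 CPM in untreated WT and 77.5, 71.6 and 94.5 in EV, and Brd8, a bromodomain protein, had 60.3, 64.2 and 54.5 in WT and 71.2, 69.1 and 69.9 in EV. Hdac3 overlapped between the lines and Brd8 did not, with differences of 0.33 ± 0.12 and 0.24 ± 0.12. Of 4 innate immunity members 1 was called higher in each state: Ptpn2, a phosphatase of JAK and STAT proteins, with 63.0, 56.6 and 67.6 CPM in untreated WT and 83.9, 99.5 and 82.6 in EV (0.50 ± 0.11). Socs6, of the family of cytokine signalling suppressors and lying after the stretch, had 0.45 ± 0.18 untreated and 0.15 ± 0.18 treated. Of 3 members for matrix and glycans 1 was called higher in each state: Galnt1, which starts O-linked glycans, with 45.0, 49.4 and 46.2 CPM in WT and 68.4, 65.8 and 65.9 in EV (0.51 ± 0.12). Ndst1, an enzyme of heparan sulfate sulfation whose gene overlaps Rps14 on the opposite strand, had 0.09 ± 0.14 untreated and -0.13 ± 0.13 treated.

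Differences between lines were set side by side untreated and treated. The untreated and treated comparisons of EV with WT share no library, although the cells are of the same lines. Across the 223 members, Pearson's r was 0.84 and Spearman's rho 0.79, a description over genes that are not independent replicates. Pearson's r was 0.59 for EV minus 1CF10, 0.67 for EV minus 2CD7, 0.74 for 1CF10 minus WT, 0.41 for 2CD7 minus WT and 0.72 for 2CD7 minus 1CF10. For EV minus WT, 194 members had the same sign in both states, 69 were called higher in both, 3 lower in both and none in opposite directions, where 4.71% and 4.93% of all tested genes were called higher and lower in both. The 3 were Gata6, Acaa2 and Cyb5a, named after their values were seen, and either call of Acaa2 was lost in some fits without 1 library. Whether a member's EV minus WT difference depended on treatment was tested as an interaction. None of the 223 passed (edgeR), against 0.0256% and 0.0171% of all genes called higher and lower. At an unadjusted p below 0.05 there were 7 higher and 8 lower, and DESeq2 called none.

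Comparisons without EV were not used to choose the chromosome. The median member was 0.03 higher in 1CF10 than in WT, untreated and treated, and 2CD7 minus WT had medians of 0.01 and 0.02. Untreated, 21 members were called higher in 1CF10 than in WT and 19 lower, where 8.19% and 11.0% of all genes were called. After IFN beta the counts were 39 and 37, against 14.9% and 17.1%. For 2CD7 minus WT they were 5 and 0 untreated, against 1.45% and 2.06%, and 18 and 18 treated, against 5.94% and 8.06%. For 2CD7 minus 1CF10 they were 17 and 7 untreated (7.71% and 5.69%), and 19 and 14 treated (8.76% and 6.41%). These shares are near the background of all tested genes, which holds genes of lower depth than the members. For 2CD7 minus WT untreated the 0 lower compares with 14 at an unadjusted p below 0.05 and 0 by DESeq2, and the 5 higher were Cdc23, Snhg4, Hbegf, Slc14a1 and Gm17383, named after their values were seen.

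Several of these counts turned on 1 library. For 1CF10 minus WT untreated, 13 higher and 9 lower were called without the third WT library. For 2CD7 minus WT untreated, 2 higher were called without replicate 1 or 3 of 2CD7 or the second WT library and 0 without the third WT library, and 1 lower without the first WT library. For 2CD7 minus WT treated, 9 higher and 10 lower were called without the second 2CD7 library and 11 higher without the first WT library. For 2CD7 minus 1CF10 untreated, 8 higher and 4 lower were called without the second 1CF10 library, and 6 and 11 higher without replicates 2 and 3 of 2CD7. Treated, 7 and 8 lower were called without replicates 2 and 3 of 2CD7.

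Single members differed between the clones and WT by much more than the median. Called in the same direction untreated and treated were 14 higher and 15 lower members in 1CF10, and 3 higher and none lower in 2CD7. Of all tested genes, 6.05% and 8.2% were called so in 1CF10, and 0.872% and 1.28% in 2CD7, so the shares of the members were near the background. Slc14a1 (78100091 to 78142119) had 2.70, 3.57 and 3.79 CPM in untreated WT, 16.6, 15.2 and 23.2 in 1CF10, 12.1, 6.69 and 5.92 in 2CD7, and 24.0, 27.1 and 22.5 in EV. All 3 other lines were above WT, with 1CF10 minus WT at 2.43 ± 0.29 (edgeR adjusted p = 1.5e-09) and 2CD7 minus WT at 1.28 ± 0.35 (adjusted p = 0.023), the latter lost in 4 of the fits that left out 1 library. Hbegf was 1.80 ± 0.13 higher in 1CF10 than in WT in both states (adjusted p = 1.3e-17 untreated). In 2CD7 it was 0.49 ± 0.14 higher untreated (adjusted p = 0.040, lost by DESeq2 and in 4 of the fits that left out 1 library) and 0.65 ± 0.15 higher treated (adjusted p = 0.00091, lost in 1 such fit). Smad7 was 0.58 ± 0.19 higher in untreated 1CF10 (adjusted p = 0.020, lost in 3 such fits) and 0.80 ± 0.19 higher in treated 1CF10 (adjusted p = 0.00080). Snhg4 was higher in 2CD7 by 0.49 ± 0.13 untreated and 0.47 ± 0.14 treated (adjusted p = 0.023 and 0.012, lost in 4 and 2 such fits).

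Among the 15 lower members, those with the lowest mean of both states were Sting1, Slc26a2 and Gm7464. Sting1, the adaptor of cytosolic DNA sensing (35733679 to 35740554), had 26.1, 20.9 and 25.9 CPM in untreated WT and 25.05, 13.1 and 14.9 in 1CF10, which overlap. The difference was -0.50 ± 0.18 (edgeR adjusted p = 0.037, lost by DESeq2 and in 4 of the fits without 1 library). Slc26a2, a sulfate transporter, had 27.9, 21.9 and 28.3 CPM in WT and 16.1, 20.2 and 17.1 in 1CF10, with a difference of -0.56 ± 0.18 untreated (adjusted p = 0.019, lost by DESeq2 and in 4 such fits) and -1.04 ± 0.17 treated (adjusted p = 1.2e-06). Gm7464 is a processed pseudogene with 15.3, 12.7 and 14.8 CPM in WT and 8.49, 6.36 and 10.5 in 1CF10, and its call was lost by DESeq2 and in 3 such fits untreated and 5 treated.

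Members were called after IFN beta at shares near or below those of all tested genes. In WT 12 were called higher and 2 lower after treatment, where 5.01% and 1.84% of all genes were called, and in EV 7 and 2, against 3.99% and 1.1%. The lower calls turned on single libraries: 1 was called in WT without treated replicate 2 or untreated replicate 3, 1 in EV without untreated replicate 1, and 0 in EV without treated replicate 2 or 3 or untreated replicate 2. The 7 higher in EV were Dcp2, Sting1, Nedd4l, Tcf4, Tnfaip8, Nr3c1 and Ecscr, all of which were also called in WT. In each clone no member was called in either direction (0.0% of all genes). At an unadjusted p below 0.05 there were 5 higher and 2 lower members in 1CF10 and 6 and 3 in 2CD7, and DESeq2 called none in either.

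Dcp2, the enzyme that removes the mRNA cap (44380502 to 44424969), had 47.7, 47.9 and 54.1 CPM in untreated WT and 125, 115 and 114 after IFN beta. In EV it had 95.1, 80.6 and 73.6 untreated and 132, 167 and 157 treated. Treated 1CF10 had 52.5, 46.6 and 54.6 CPM, and treated 2CD7 52.0, 57.0 and 50.1, and the untreated clones ran from 47.0 to 55.5 CPM. The response was 1.23 ± 0.11 in WT (edgeR adjusted p = 1.7e-14) and 0.87 ± 0.10 in EV (adjusted p = 1.5e-10). Untreated EV was already above untreated WT, and all 3 treated EV libraries were above every other library.

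Sting1 had 48.0, 50.5 and 48.8 CPM in treated WT and 54.8, 56.7 and 48.4 in treated EV, against 28.0, 23.9 and 27.8 in untreated EV. The response was 1.00 ± 0.15 in WT and 1.01 ± 0.15 in EV (adjusted p = 5.7e-07 and 3.0e-07), and treated 1CF10 had 18.2, 14.3 and 15.9 CPM. Tcf4, a basic helix-loop-helix factor (69343356 to 69689079), rose by 0.54 ± 0.13 in WT and 0.71 ± 0.13 in EV (adjusted p = 0.0024 and 2.9e-05). Tnfaip8, a regulator of cell death, rose by 0.73 ± 0.12 in WT and 0.46 ± 0.12 in EV (adjusted p = 2.5e-06 and 0.0068, the latter lost in 2 of the fits without 1 library). Nedd4l, a ubiquitin ligase, rose by 0.71 ± 0.17 in WT and 0.56 ± 0.17 in EV (adjusted p = 0.0018 and 0.034). Its call in EV was lost by DESeq2 and in 5 of the fits without 1 library.

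These responders lie in the stretch, but in untreated EV minus WT 4 of the 5 lay below its median. Untreated EV minus WT was -0.03 ± 0.14 for Tcf4, 0.12 ± 0.12 for Tnfaip8, -0.00 ± 0.18 for Nedd4l and 0.12 ± 0.17 for Sting1, all below the median of 0.37. This holds for the comparison with WT alone. Over all 6 comparisons of EV the mean was 0.34 for Tcf4, 0.18 for Tnfaip8 and 0.14 for Nedd4l, and untreated Sting1 was itself lower in 1CF10 than in WT (-0.50). Untreated Tcf4 had 42.8, 49.4 and 58.6 CPM in WT and 45.2, 59.2 and 45.0 in EV, and Tnfaip8 had 45.0, 42.8 and 41.4 in WT and 43.6, 41.9 and 54.8 in EV. The lines overlapped for both genes. Nr3c1, the glucocorticoid receptor, had 0.13 ± 0.10 for untreated EV minus WT and rose by 0.39 ± 0.10 in WT and 0.40 ± 0.09 in EV (edgeR adjusted p = 0.0038 and 0.0024, the former lost in 2 of the fits without 1 library).

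The response of the clones, as their mean, was also tested against the mean response of WT and EV. Of the members, 2 were called higher and 8 lower in this interaction, where 1.56% and 3.68% of all genes were called. The 8 were Dcp2, Sting1, Nr3c1, Tnfaip8, Tcf4, Nedd4l, Ecscr and Smim3, and the 2 were Impact and Ankhd1, named after their values were seen. The 2 higher became 1 without 1CF10 treated replicate 3 or untreated replicate 2 or 3, without 2CD7 treated replicate 1 or untreated replicate 2, without EV treated replicate 2 or 3 or untreated replicate 1 or 2, and without WT treated replicate 1 or 2 or untreated replicate 3. DESeq2 called 1 higher and 7 lower, and 6 higher were called with library totals alone. The call of Ankhd1 was lost in 15 of the 24 fits without 1 library and that of Smim3 in 4, and DESeq2 lost both. The other 8 were kept in all 24 fits and by DESeq2.

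Among the 20 chromosomes, genes of chromosome 18 with a mean of at least 30 UMIs had the highest median in EV minus WT and EV minus 2CD7, in both states. In EV minus 1CF10 they came second, with 0.27 and 0.24, after chromosome 12 at 0.44 and 0.38. Chromosome 12 was low in 1CF10 itself, at -0.31 and -0.29 against WT. It was also above 0 in EV minus WT, at 0.08 and 0.07, and in EV minus 2CD7, at 0.13 and 0.10. Chromosome 14 was lowest in EV minus 2CD7, at -0.24 and -0.25, and highest in 2CD7 minus WT, at 0.11 and 0.14. In the 6 comparisons without EV, chromosome 18 ranked between 4 and 13, with medians of -0.03 to 0.03.

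**Figure D5:**
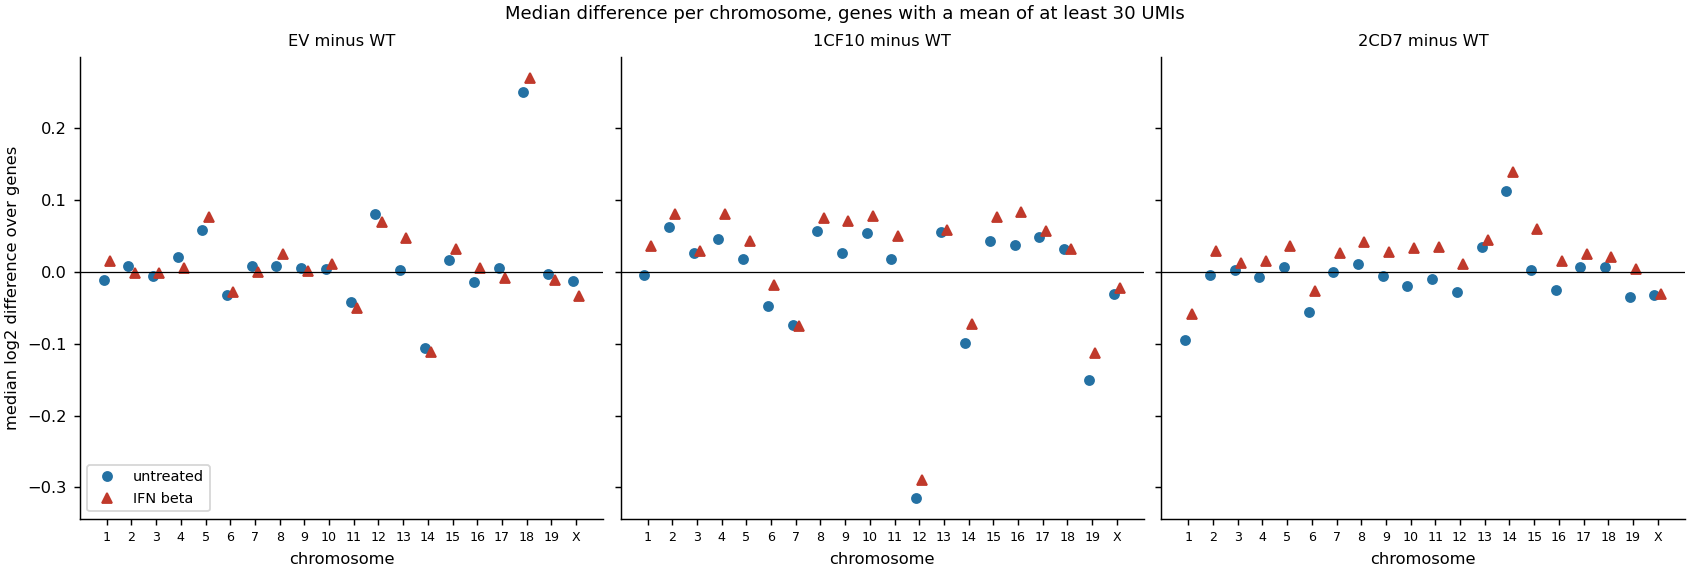
Median log2 difference (y axis) over genes with a mean of at least 30 UMIs on each chromosome (x axis) for EV, 1CF10 and 2CD7 minus WT. Circles are untreated and triangles IFN beta; chromosome 18 stands at 0.25 and 0.27 for EV minus WT and at 0.01 to 0.03 for the clones.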

How the data were processed

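Gene-level UMI counts were deposited by the authors as 1 table of raw counts for 24 libraries of 3′ poly(A)-primed RNA, each primer carrying 8 bp of sample index and 10 bp of UMI per the labels' protocols. The submitters' processing notes name cutadapt 3.0, edgeR 3.36.0, limma 3.50.0, R 3.6.2 and 4.1.2, and GRCm38; the aligner and the use of strand are not given in the sources used here. Positions and gene types came from the GENCODE M21 annotation of GRCm38, which matched 24538 of 24614 gene identifiers.

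The whole table was fitted with edgeR 4.0.16 in R 4.3.3: genes were kept by filterByExpr (minimum count 10, total 15), which left 11698, libraries were scaled by TMM, and contrasts among 8 groups were tested with the robust quasi-likelihood test and no covariates. P-values were adjusted by Benjamini-Hochberg over all tested genes, and calls are at 0.05. Levels are TMM-scaled CPM, except those of the cell type markers, which are CPM of raw library totals. Shares are percent of raw UMIs. Alternatives were DESeq2 1.42.0, other scaling and filters, a replicate block, compared groups alone, leaving out each library and other member sets. The scripts were tested on simulated counts.

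Members and lists were chosen with earlier results of these data known. The genes named were the 6 most abundant members, the 6 largest and 6 smallest EV minus WT differences among members with at least 100 UMIs, up to 5 shared IFN beta responders, up to 3 per direction for each clone against WT, up to 3 of the most abundant members of each role list, and genes beside the minimum. Not all other names are marked. Genes at or beside the ends of the stretch, list members outside it, overlapping genes and some called or separated members are named without a mark. The stretch, its ends without members that reached the minimum through EV, the protein-coding subset and the clone response contrast were added after the data were seen.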

Additional observations from a re-analysis of the deposited data

Results flagged for a closer look

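For 10 members the response to IFN beta differed between the lines, by an interaction (edgeR, adjusted over all tested genes). It set the mean response of both Ifnar1 knockout clones against the mean response of WT and EV. Of all tested genes, 1.56% were called higher and 3.68% lower in this interaction. The 2 higher and 8 lower members were shares of the members near or below these, so such calls were not more frequent among members. The response was lower in the clones for Sting1, by -1.06 ± 0.16 (log2, SE, adjusted p = 1.5e-06), and for Dcp2, by -1.03 ± 0.11 (adjusted p = 4.8e-11). For Smim3 the difference was -0.72 ± 0.21 (adjusted p = 0.026), for Nedd4l -0.70 ± 0.17 (adjusted p = 0.0048) and for Tcf4 -0.61 ± 0.13 (adjusted p = 0.00094). For Tnfaip8 it was -0.58 ± 0.12 (adjusted p = 0.00041), for Ecscr -0.48 ± 0.13 (adjusted p = 0.0086) and for Nr3c1 -0.45 ± 0.10 (adjusted p = 0.0010). The response was higher in the clones for Impact, an inhibitor of the stress kinase Gcn2, by 0.52 ± 0.13 (adjusted p = 0.0073), and for Ankhd1 by 0.49 ± 0.15 (adjusted p = 0.043). The call of Ankhd1 was lost in 15 of the 24 fits without 1 library and that of Smim3 in 4, and DESeq2 lost both. Impact fell by 0.62 in WT after IFN beta, and in EV its response was -0.31 ± 0.14 (adjusted p = 0.30). Ankhd1 fell by 0.53 in EV, and in WT its response was -0.30 ± 0.15 (adjusted p = 0.32). The genes with lower values in the clones, apart from Smim3, were called higher after IFN beta in both WT and EV.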

How the results depend on the processing

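Medians of the members and of the stretch kept their sign in the 6 comparisons of EV under every alternative run. The median of treated 2CD7 minus 1CF10, -0.013, turned to 0.0075 without the third 2CD7 library and to 0.022 with members of at least 100 UMIs. Medians outside the stretch, within 0.04 of 0, changed sign in 10 of 90 alternative values. Scaling by library totals alone also moved the median of all genes with a mean of at least 30 UMIs. That median was -0.039 and -0.10 for EV minus 1CF10 (untreated and treated), -0.050 for treated EV minus 2CD7, and 0.034 and 0.12 for 1CF10 minus WT. The values of members that follow include this shift. With library totals alone, the median of members was 0.24 and 0.15 for EV minus 1CF10 (untreated and treated), 0.21 for treated EV minus 2CD7, 0.059 and 0.12 for 1CF10 minus WT, 0.076 for treated 2CD7 minus WT and -0.050 for treated 2CD7 minus 1CF10, and that of the stretch was 0.32 and 0.25 for EV minus 1CF10 and 0.33 for treated EV minus 2CD7. Members called lower were then 7 and 10 for EV minus 1CF10, 9 for treated EV minus 2CD7, 23 for treated 1CF10 minus WT, 11 for treated 2CD7 minus WT and 4 for the EV response, and 28 and 10 were called higher for treated 2CD7 minus WT and untreated 2CD7 minus 1CF10. With the 186 protein-coding members only, medians for EV were 0.30 and 0.31 against WT, 0.31 and 0.27 against 1CF10 and 0.34 and 0.31 against 2CD7. Of the 186, 2 were called lower against 1CF10 untreated, 4 lower against WT treated and 3 higher in untreated 2CD7 minus WT. With the 119 members of at least 100 UMIs, medians were 0.22 for untreated EV minus WT, 0.26 for treated EV minus 1CF10, 0.0099 for treated 1CF10 minus WT and 0.022 for treated 2CD7 minus 1CF10. The counts in this set are out of 119, not of 223. Members called higher were then 52 for untreated EV minus WT, 11 for untreated 1CF10 minus WT, 3 for untreated 2CD7 minus WT, 11 for untreated 2CD7 minus 1CF10 and 7 for the WT response, and lower ones were 1 for untreated EV minus 2CD7, 2 for treated EV minus 1CF10, 3 and 7 for 2CD7 minus 1CF10 and 0 for the EV response. Shares of UMIs were then 1.93% and 1.88% in WT, 2.23% and 2.18% in EV, 1.98% and 1.96% in 1CF10 and 1.97% and 1.95% in 2CD7, and over TMM-scaled totals 2.18% in treated WT, 2.53% and 2.54% in EV, 2.18% and 2.16% in 1CF10 and 2.19% in treated 2CD7. DESeq2 called 66 and 75 members higher for EV minus WT, 58 and 65 for EV minus 1CF10 and 63 and 63 for EV minus 2CD7, untreated and treated. DESeq2 called 3 lower for untreated EV minus WT, 12 lower for untreated 1CF10 minus WT, 2 higher for untreated 2CD7 minus WT, 8 higher and 9 lower for 2CD7 minus 1CF10 untreated and treated, and 0 lower for the EV response. With compared groups alone, 10 were higher and 1 lower for untreated 2CD7 minus WT, and 11 and 9 for treated 2CD7 minus 1CF10. Without a filter on low counts, 10 and 12 were higher for 2CD7 minus 1CF10, and the median of treated EV minus 1CF10 was 0.22.

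Leaving out 1 library at a time gave ranges. Members called higher for EV minus WT were 66 to 74 untreated and 74 to 80 treated. Against 1CF10 they were 55 to 61 and 66 to 75, and against 2CD7 57 to 68 and 60 to 70. All of these ranges lie below the counts of the fit with every library. Members lower were 2 to 6 for untreated and 4 to 6 for treated EV minus WT, 2 to 4 and 1 to 6 for EV minus 1CF10, 1 to 2 for the WT response and 0 to 2 for the EV response. Medians were 0.24 to 0.29 and 0.26 to 0.30 for EV minus WT and 0.23 to 0.26 for treated EV minus 1CF10, and 0.37 to 0.42 in the stretch for untreated EV minus WT. For 1CF10 minus WT, 13 to 20 were higher and 9 to 16 lower untreated, and the treated median was 0.0073 to 0.031. For 2CD7 minus WT, 0 to 5 were higher and 0 to 1 lower untreated, with a median of 0.015 to 0.037, and 9 to 18 higher and 10 to 18 lower treated. For 2CD7 minus 1CF10, 6 to 13 were higher and 4 to 6 lower untreated, with a median of -0.030 to -0.0033, and 7 to 12 lower treated, with a median of -0.018 to 0.0075.

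Replicate numbers did not pair the libraries: deviations from group means correlated at a mean r of 0.019 (-0.15 to 0.15, 84 pairs) for equal and -0.0097 (-0.31 to 0.29, 168 pairs) for unequal numbers. With a replicate block, 83 and 90 members were higher for EV minus WT, 72 and 80 for EV minus 1CF10 and 76 and 80 for EV minus 2CD7, 22 and 40 for 1CF10 minus WT, 6 and 18 for 2CD7 minus WT and 17 and 19 for 2CD7 minus 1CF10, and 12 and 7 in the WT and EV responses. The replicates are technical, so differences between lines have no biological replicate. Depth limits single calls: of members of the stretch with fewer than 100 UMIs, 15 of 65 were called higher in no comparison of EV.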
